A study of Homo sapiens with 8 samples.

Results

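RNA sequencing of AB8 cells, a human line derived from podocytes, gave 8 libraries, and the libraries numbered 1 in both groups are described here against the libraries numbered 2 to 4. Podocytes are the epithelial cells that wrap the capillaries of the kidney glomerulus. The libraries numbered 1 were 2 of 8: 1 of the 4 from non-induced cells and 1 of the 4 from cells given doxycycline for 48 h. Every library came from cells modified with pIND21_hCrb2+GFP_S267A, in which doxycycline switches on human CRB2 bearing the change S267A. The labels place all cells 3 to 8 passages after this modification without giving the passage of any 1 library. The CRB2 protein spans the membrane and acts in the Crumbs complex, which sets apical polarity. A control for doxycycline itself, in cells that lack the construct, was not analysed here. The labels do not say whether replicates were separate cultures or what a replicate number stands for.

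The libraries numbered 1 were selected on their expression values, since they lay far from the other libraries of both groups. In the non-induced group the comparison sets 1 library against 3, and likewise in the induced group. Because of this choice, differences between the libraries numbered 1 and numbers 2 to 4 are a description and carry no test. Only 1 library stood on that side in each group, the cause of the difference is not labelled, and nothing below tests one. Some genes beyond the naming rule are named as members of the lists, and these were chosen after their values were seen. In a check of sample identity on genes that are not reported here, 2 of the 8 libraries did not match the others. Beyond this check, whether all libraries came from the same stock of cells was not tested.

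Several of the programs compared below are textbook stress and growth responses. In the integrated stress response, kinases that sense amino acid shortage, unfolded proteins or other stress slow translation and raise the factor ATF4, which switches on amino acid supply genes and a second factor, CHOP, encoded by DDIT3. In the unfolded protein response, ATF6 and XBP1 raise chaperones of the endoplasmic reticulum such as HSPA5. The factors SRF and YAP follow the state of the actin cytoskeleton and switch on genes for actin filaments, adhesion and matrix, and p53 switches on CDKN1A to stop the cell cycle and MDM2 to limit itself.

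Libraries held 16829454 to 23081616 counted reads, with 19668898 and 19008593 in the libraries numbered 1. The 100 genes with the most reads took 16.9% and 16.4% of reads in the libraries numbered 1 and 17.9 to 18.5% in the other 6. Messages of cytosolic ribosomal proteins took 5.54% and 5.07% of reads in the libraries numbered 1 and 4.45 to 4.94% in the others. Transcripts of mitochondrial DNA took 2.88 to 3.91% over the 8 libraries, and both libraries numbered 1 lay inside that range. Over 11502 well expressed genes, each library numbered 1 lay at a root mean square distance of 0.50 to 0.59 on the log2 scale from the libraries numbered 2 to 4. The libraries numbered 1 lay 0.28 from each other, and numbers 2 to 4 lay 0.14 to 0.29 from one another across both groups. The first principal component held 70.5% of the variance and separated number 1 from the rest, and the second held 15.6% and separated the induced libraries from the others.

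Of 15637 genes tested, 373 (2.39%) were set apart higher and 650 (4.16%) were set apart lower in the libraries numbered 1. A gene was counted as set apart where the fitted difference was at least 2-fold and library 1 lay outside the range of libraries 2 to 4 in both groups, on the same side. By range alone, at any size, library 1 lay above the others in both groups for 4413 genes (28.2%) and below them for 4400 (28.1%). These shares describe the contrast that chose the libraries, and nothing is read from them. They are the shares over all genes tested to set beside the counts of each list below. Set apart genes at least 4-fold different numbered 56 higher and 209 lower. The filter asks for reads in 4 libraries, so genes on only in the libraries numbered 1 mostly fail it. With no filter, 1307 were set apart higher and 1106 lower at 2-fold, so the numbers in the 2 directions are not compared. Genes near the limit were HMGCS1 at 1.02 and TP53INP1 at 1.01 on the log2 scale, just inside it, and IRF1 at 0.99 and ACACA at 0.98, just outside.

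Most 2-fold differences of library 1 ran the same way in both groups. A 2-fold difference was found for 1055 genes in the non-induced group and 1113 in the induced group. Of these, 736 were 2-fold different the same way in both, which is 69.8% of the first list and 66.1% of the second, and 4 went opposite ways. Across genes, which are not independent replicates, the differences in the 2 groups correlated at r = 0.849 (n = 15637 genes). The groups share no library, but the libraries numbered 1 were chosen for lying apart in both. The overlap and the correlation are therefore a description and no independent check. Set apart genes were mostly weakly expressed: their share was 14.5% of genes with a mean of 1 to 5 CPM (counts per library scaled to a common size) and 1.72% of genes above 100 CPM. Counting error makes a 2-fold gap easier to reach at low counts, so this is not read as a trait of number 1. The median GC content of set apart genes was 50.3% for those higher and 49.7% for those lower, against 47.9% over all genes tested. Median exon length was 4655 and 4829 bases against 4498.5.

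**Figure D1:**
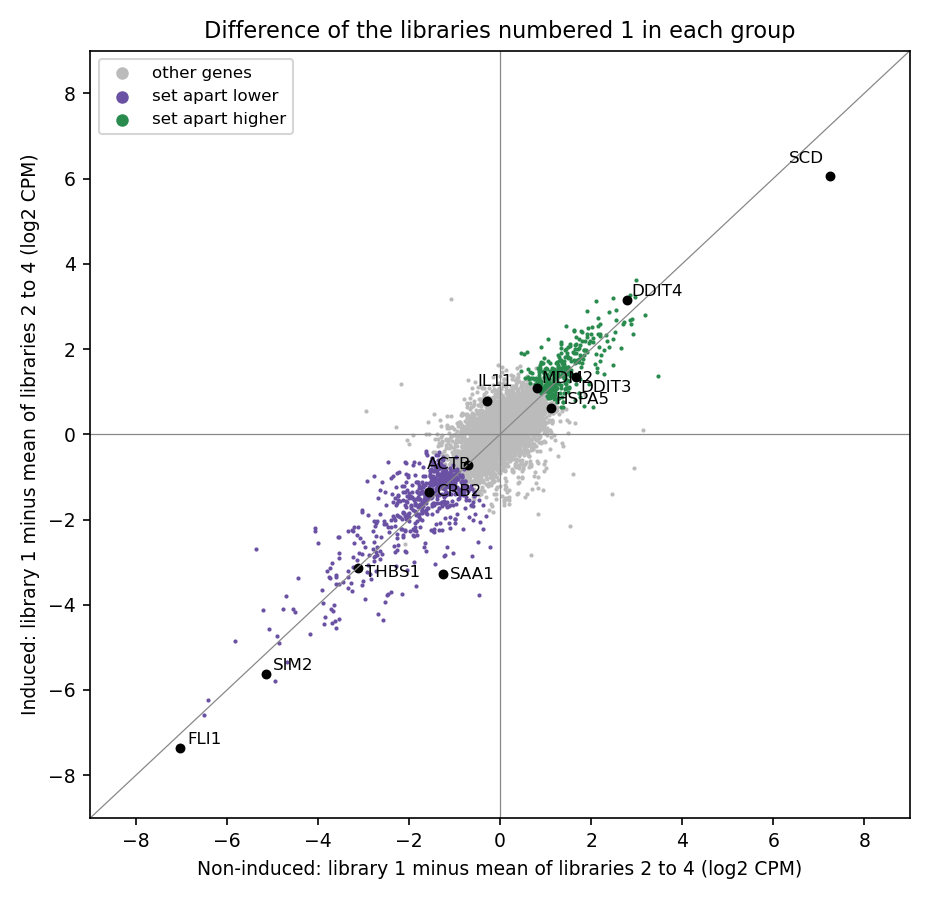
Each point is 1 gene of the autosomes, with the log2 CPM difference between library 1 and the mean of libraries 2 to 4 in the non-induced group on the x axis and in the induced group on the y axis. Green and purple genes were set apart higher and lower, and they follow the diagonal, while IL11 lies off it.

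The 6 markers given for this state lay outside the range of the other libraries in both groups, and 1 of them, DDIT3, was set apart by 2-fold. DDIT3 (ENSG00000175197, GRCh38 chromosome 12, 57516588 to 57521737, minus strand) encodes CHOP, a stress factor that can promote cell death. It stood at 34.2 and 40.8 CPM in the non-induced and induced library 1, 10.2, 11.7 and 10.3 CPM in non-induced libraries 2 to 4, and 15, 15.9 and 17 CPM in induced libraries 2 to 4. The lowest library numbered 1 was above the highest of the other 6, and the fitted difference was 1.51 on the log2 scale. MDM2 (ENSG00000135679, chromosome 12, 68808176 to 68850686, plus strand) encodes the ligase that marks p53 for breakdown, and its level was 146 CPM in non-induced library 1 against 85.9, 84 and 80.9 CPM in libraries 2 to 4, and 223 CPM in induced library 1 against 105, 107 and 103. HSPA5 (ENSG00000044574, chromosome 9, 125234853 to 125241330, minus strand), the main chaperone of the endoplasmic reticulum, measured 1565 and 1620.4 CPM in the non-induced and induced library 1, 681, 736 and 747 CPM in non-induced libraries 2 to 4, and 1064, 1131 and 988 CPM in induced libraries 2 to 4. Both were higher in number 1, with fitted log2 differences of 0.95 for MDM2 and 0.88 for HSPA5.

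ACTB, TPM1 and VCAN were lower. ACTB (ENSG00000075624, chromosome 7, 5527147 to 5563784, minus strand) encodes the main cytoplasmic actin and had 3697 CPM in non-induced library 1 against 6104, 6211 and 5885 CPM in libraries 2 to 4, and 3224 CPM in induced library 1 against 5372, 5279 and 5322. TPM1 (ENSG00000140416, chromosome 15, 63042632 to 63071915, plus strand), a tropomyosin that lies along actin filaments, had 690.1 and 804 CPM in the non-induced and induced library 1, 1184, 1178 and 1180.4 CPM in non-induced libraries 2 to 4, and 1339, 1385 and 1518 CPM in induced libraries 2 to 4. VCAN (ENSG00000038427, chromosome 5, 83471465 to 83582303, plus strand), the matrix proteoglycan versican, had 168 CPM in non-induced library 1 against 328, 321 and 305 CPM in libraries 2 to 4, and 219 CPM in induced library 1 against 375, 401 and 403. Fitted log2 differences were -0.72, -0.79 and -0.89, and in each gene both libraries numbered 1 lay below all 6 others. The transgene's own gene, CRB2 (ENSG00000148204), followed the same pattern within each group, with 8.31 and 1734 CPM in the non-induced and induced library 1, 26, 26.4 and 21.8 CPM in non-induced libraries 2 to 4, and 4252, 4599 and 4481 CPM in induced libraries 2 to 4. Its fitted log2 difference was -1.42, so the induced library numbered 1 carried less CRB2 RNA than the other induced libraries, and the part of this in other results was not tested. Counts of CRB2 do not separate the construct from the cells' own gene.

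**Figure D2:**
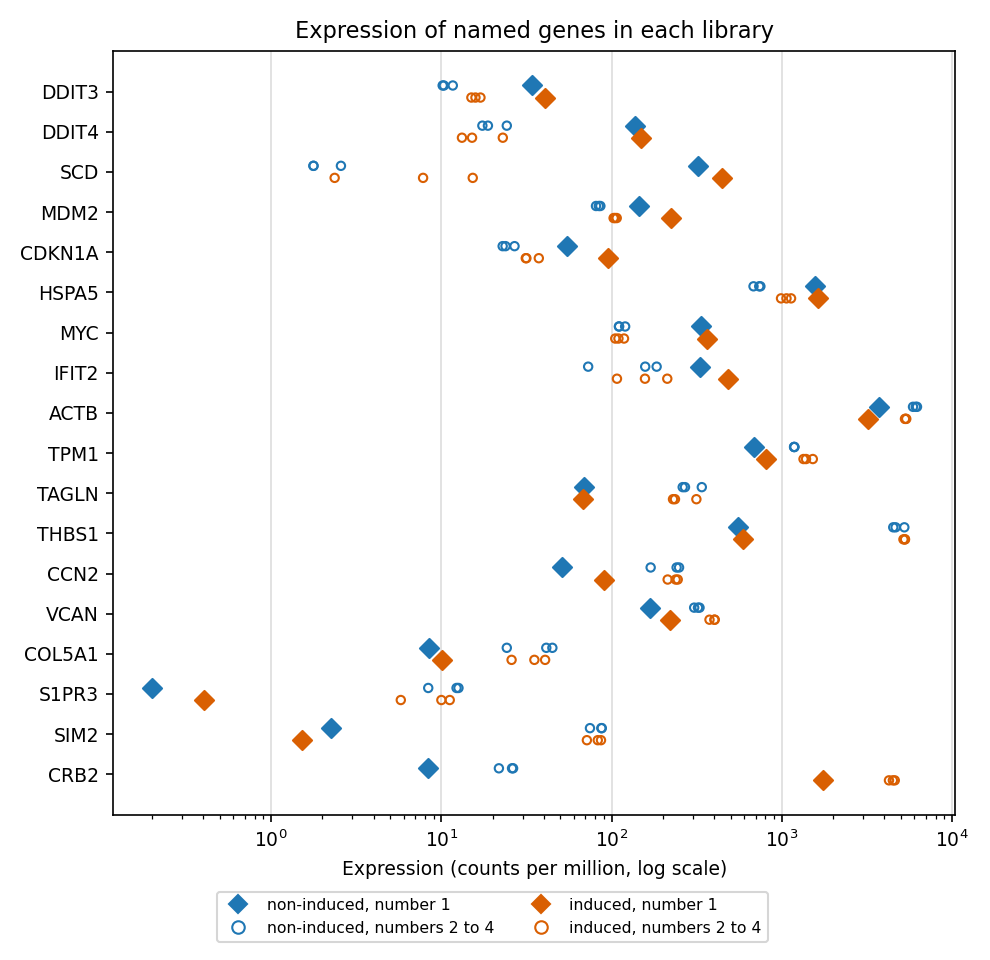
Expression of 18 genes in each of the 8 libraries, in CPM on a log axis, with filled diamonds for library 1 and open circles for libraries 2 to 4 of each group. From DDIT3 to IFIT2 the diamonds lie to the right of the circles of their own colour, and from ACTB to CRB2 they lie to the left.

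Targets of ATF4 and CHOP were higher as a group. Of 35 tested, 8 were set apart higher and 0 lower, 30 lay above the range in both groups and 1 (ATF5) below it, and the median log2 difference was 0.59, against 0.01 over all genes tested. Factors and feedback genes stood out, with a median of 1.03 over 12. DDIT4, an inhibitor of the growth kinase mTORC1, had 138 CPM in non-induced library 1 against 18.8, 17.4 and 24.2 CPM in libraries 2 to 4, and 148 CPM in induced library 1 against 13.2, 15.1 and 23. Neither library numbered 1 overlapped the others, and the fitted log2 difference was 2.96. ATF3, a stress factor, had 110.3 and 160.0 CPM in the non-induced and induced library 1, 32.8, 35.3 and 24.3 CPM in non-induced libraries 2 to 4, and 31.1, 39.4 and 35.6 CPM in induced libraries 2 to 4, a difference of 2.01. CTH, which makes cysteine, had 32.6 CPM in non-induced library 1 against 6.07, 7.94 and 10.2 CPM in libraries 2 to 4, and 46.2 CPM in induced library 1 against 8.09, 8.29 and 13.2. NUPR1, a small stress protein of the nucleus, had 4.33 and 3.85 CPM in the non-induced and induced library 1, 0.374, 0.233 and 1.32 CPM in non-induced libraries 2 to 4, and 0.306, 0.429 and 1.21 CPM in induced libraries 2 to 4. In each of these genes library 1 was the highest of its group. ATF4's own message differed less, at 451 CPM in non-induced library 1 against 325, 341 and 422 CPM in libraries 2 to 4, and 405 CPM in induced library 1 against 298, 329 and 402, which is a fitted log2 difference of 0.28.

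The 7 tRNA synthetase genes of this list all lay above the range in both groups, with a median log2 difference of 0.44, as did all 9 genes of amino acid synthesis, at 0.54. The 7 tested genes of transport and secreted proteins did not share this, with a median of -0.02. SLC7A5, an amino acid carrier, had 297 and 400.2 CPM in the non-induced and induced library 1, 337, 334 and 418 CPM in non-induced libraries 2 to 4, and 391, 374 and 546 CPM in induced libraries 2 to 4. Both libraries numbered 4 also stood above their groups in this list, by a median of 0.28 in the non-induced and 0.34 in the induced library against the other libraries numbered 2 to 4, where the libraries numbered 1 stood 0.54 and 0.58 above.

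Chaperones and degradation genes of the endoplasmic reticulum showed no shared shift as a list. The list median was 0.12 in the non-induced and -0.08 in the induced library 1. Single libraries numbered 2 to 4 ranged from -0.16 to 0.09, so induced library 1 lay inside that spread and non-induced library 1 just above it. Of 32 tested, 1 was set apart higher, HERPUD1, and 1 lower, ERO1B, and the median was 0.00 over both groups. In this list 7 lay above and 8 below the range, where 28.2% and 28.1% of all genes tested did. The 12 chaperones alone had a median of 0.34 in the non-induced and -0.04 in the induced library 1. Summed over the list, the level was 9060 CPM in non-induced library 1 against 7342 to 7752 in the other non-induced libraries. In induced library 1 it was 9541 CPM against 9042 to 10090.1 in the other induced ones. HSPA5, a given marker, is part of this sum. HERPUD1, a membrane protein that helps to remove misfolded proteins, had 130.2 CPM in non-induced library 1 against 42.4, 45.6 and 52.6 CPM in libraries 2 to 4, and 131 CPM in induced library 1 against 50.6, 51.1 and 60.9, a fitted log2 difference of 1.38. XBP1, a factor of the unfolded protein response, had 164 and 177 CPM in the non-induced and induced library 1, 91.6, 100.1 and 102 CPM in non-induced libraries 2 to 4, and 98.3, 112 and 119 CPM in induced libraries 2 to 4. The factor stood clear of the others in both groups. CALR, a lectin chaperone, had 1309 CPM in non-induced library 1 against 1170.0, 1179 and 1138 CPM in libraries 2 to 4, and 1435 CPM in induced library 1 against 1701, 1729 and 1564. HSP90B1, another abundant chaperone, had 964 and 1059 CPM in the non-induced and induced library 1, 801, 786 and 717 CPM in non-induced libraries 2 to 4, and 1229, 1185 and 993 CPM in induced libraries 2 to 4. HSPA5 was thus higher in both libraries numbered 1 while CALR and HSP90B1 were above the range only in the non-induced library and below or inside it in the induced one.

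Promoter letters are shown for genes of these families because each family has a known response element near its start sites. Windows of 250 bases before the first listed RefSeq start (GRCh38.p14) are printed 5′ to 3′ on the gene's strand, with the motif in capitals. ATF3 lies at chr1:212565157-212565406 on the plus strand and holds TGATGNAA, the element bound by ATF4 with C/EBP partners. HERPUD1 lies at chr16:56931892-56932141 on the plus strand and holds the same element on the other strand, read here as its reverse complement, and a TATA box (TATAAA), also in capitals. HSPA5 lies at chr9:125241344-125241593 on the minus strand and holds the ER stress element, CCAAT followed by 9 bases of any kind and CCACG. Forms of this element with another spacing were not searched or marked in any window. ACTG1, a cytoplasmic actin described with the actin genes, lies at chr17:81512800-81513049 on the minus strand and holds a CArG box, the element bound by SRF.
ATF3: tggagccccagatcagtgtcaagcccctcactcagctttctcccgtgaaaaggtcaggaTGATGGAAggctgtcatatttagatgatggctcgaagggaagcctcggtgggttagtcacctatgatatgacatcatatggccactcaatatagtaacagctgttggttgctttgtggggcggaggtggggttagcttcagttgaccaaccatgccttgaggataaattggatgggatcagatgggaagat
HERPUD1: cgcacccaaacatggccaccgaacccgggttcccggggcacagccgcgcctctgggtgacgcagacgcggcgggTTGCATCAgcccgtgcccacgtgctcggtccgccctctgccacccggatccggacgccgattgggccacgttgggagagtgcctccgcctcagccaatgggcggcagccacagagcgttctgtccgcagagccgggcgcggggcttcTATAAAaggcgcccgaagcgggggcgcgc
HSPA5: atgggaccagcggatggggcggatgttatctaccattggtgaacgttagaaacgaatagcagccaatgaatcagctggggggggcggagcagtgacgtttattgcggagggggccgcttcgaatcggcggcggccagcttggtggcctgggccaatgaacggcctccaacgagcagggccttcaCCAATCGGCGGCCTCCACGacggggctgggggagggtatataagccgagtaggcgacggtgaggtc
ACTG1: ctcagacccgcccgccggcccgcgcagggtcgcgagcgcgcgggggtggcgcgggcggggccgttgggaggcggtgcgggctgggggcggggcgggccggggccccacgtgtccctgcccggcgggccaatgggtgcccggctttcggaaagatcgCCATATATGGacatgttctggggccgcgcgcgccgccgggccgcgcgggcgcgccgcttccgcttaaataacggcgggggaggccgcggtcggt
With 50 bases after the start added and both strands searched, TGATGNAA was in 9 of 30 matched promoters of the ATF4 and CHOP list (30.0%) and in 3.67% of all 27305 promoters of the table. The ER stress element was in 7 of 29 promoters of the chaperone list (24.1%) and in 0.081% of all, and the CArG box in 7 of 31 promoters of the actin list (22.6%) and in 1.29% of all. The lists are made of known targets, so these shares describe the lists. Of 15637 tested genes, 10968 matched a promoter by symbol, among them 242 set apart higher and 450 set apart lower. The other tested genes were not searched. TGATGNAA was in 11 of the 242 (4.5%), in 8 of the 450 (1.78%), in 1.66% of the 10968 and in 3.67% of all 27305. The CArG box was in 2 of the 242 (0.83%), in 11 of the 450 (2.44%) and in 1.04% of the 10968. The ER stress element was in 0 of the 242, in 1 of the 450 (0.22%) and in 0.13% of the 10968. TATAAA was in 11.57% of the 242, 11.56% of the 450, 5.55% of the 10968 and 11.95% of all 27305. Set apart genes were mostly weakly expressed, so the 10968 are no matched base, and nothing is read from these shares. Whether these shares differ was not tested. A match is a run of letters, not a shown binding site.

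Sterol and fatty acid genes were higher, most of all SCD. SCD (ENSG00000099194, chromosome 10, 100347124 to 100364834, plus strand) encodes the desaturase that makes monounsaturated fatty acids and had 319 CPM in non-induced library 1 against 1.77, 1.77 and 2.57 CPM in libraries 2 to 4, and 446 CPM in induced library 1 against 2.36, 7.81 and 15.3. The libraries numbered 1 did not overlap with the others, which themselves spread widely after induction, and the fitted log2 difference was 6.36. Of 26 tested members, 6 were set apart higher and 0 lower, and 20 lay above the range. Uptake, control and fatty acid genes stood at a median of 1.09 over 8, and sterol synthesis genes at 0.35 over 18. SREBF1, the factor that drives fatty acid synthesis, had 167 and 218 CPM in the non-induced and induced library 1, 43.4, 54.6 and 60.9 CPM in non-induced libraries 2 to 4, and 69.8, 111 and 117 CPM in induced libraries 2 to 4. FASN, fatty acid synthase, had 711 CPM in non-induced library 1 against 312, 307 and 291 CPM in libraries 2 to 4, and 896 CPM in induced library 1 against 382, 388 and 393. Both were at least 2-fold higher by the fit, with log2 differences of 1.40 and 1.22. CPT1A, which admits fatty acids to mitochondria for burning, went the other way, with 4.03 and 3.24 CPM in the non-induced and induced library 1, 58.4, 51.9 and 36.8 CPM in non-induced libraries 2 to 4, and 45, 38.7 and 32.2 CPM in induced libraries 2 to 4.

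Targets of p53 were higher in part. Of 31 tested, 6 were set apart higher and 0 lower, 22 lay above and 4 below the range, and the median was 0.26. All 4 feedback genes lay above the range, with a median of 0.83. CDKN1A, the p21 inhibitor of cyclin-dependent kinases, had 54.8 CPM in non-induced library 1 against 26.9, 23.8 and 22.9 CPM in libraries 2 to 4, and 94.8 CPM in induced library 1 against 31.3, 31.6 and 37.3. GDF15, a secreted stress hormone, had 24.2 and 36.4 CPM in the non-induced and induced library 1, 6.3, 6.44 and 6.34 CPM in non-induced libraries 2 to 4, and 8.22, 6.43 and 7.88 CPM in induced libraries 2 to 4. BBC3, which encodes the death protein PUMA, had 28.8 CPM in non-induced library 1 against 7.89, 9.57 and 9.27 CPM in libraries 2 to 4, and 26.7 CPM in induced library 1 against 7.22, 8.86 and 7.98. These 3 were clear of the other libraries in both groups, with log2 differences of 1.34, 2.11 and 1.71. Other known targets were close to the rest, such as BAX, with 0.13, or lower, such as PERP, a desmosome protein, with -0.97.

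Mitosis genes were lower by a small amount. Of 24 tested, 22 lay below the range and 1 above it, with a median of -0.32 and none set apart by 2-fold. MKI67, a marker of cycling cells, had 458 and 502 CPM in the non-induced and induced library 1, 591, 639 and 534 CPM in non-induced libraries 2 to 4, and 661, 666 and 594 CPM in induced libraries 2 to 4. CDK1, the kinase that starts mitosis, had 165 CPM in non-induced library 1 against 208, 199 and 205 CPM in libraries 2 to 4, and 149 CPM in induced library 1 against 186, 186 and 182. The 21 DNA replication genes had 9 above and 9 below the range and a median of -0.01, with 1, RRM2, set apart lower. In bulk RNA, fewer cells in mitosis and less of these messages per cell cannot be told apart. Among immediate early genes, 6 of 18 were set apart higher and 0 lower, against 2.39% and 4.16% of all genes tested. MYC, a growth factor-responsive transcription factor, had 334 and 363 CPM in the non-induced and induced library 1, 111, 120.0 and 110.4 CPM in non-induced libraries 2 to 4, and 105, 118 and 109.6 CPM in induced libraries 2 to 4, a fitted log2 difference of 1.63. EGR1, a zinc finger factor, had 101 CPM in non-induced library 1 against 57.8, 69 and 42.2 CPM in libraries 2 to 4, and 174 CPM in induced library 1 against 58.8, 61.9 and 62.4. CCND2, a cyclin of the G1 phase, was not among the genes tested and was chosen after its values were seen. It had 146 reads in non-induced and 148 in induced library 1, and 0 to 5 reads in each of the other 6 libraries.

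Interferon-stimulated genes were higher in part, and the other libraries also spread. Of 20 tested, 5 were set apart higher and 0 lower, 11 lay above the range, and the median was 0.41. IFIT2, which blocks translation of viral RNA, had 328 and 484 CPM in the non-induced and induced library 1, 157, 184 and 72.8 CPM in non-induced libraries 2 to 4, and 157, 212 and 107 CPM in induced libraries 2 to 4. IFIT1, of the same family, had 86 CPM in non-induced library 1 against 52.4, 58.9 and 31.9 CPM in libraries 2 to 4, and 118 CPM in induced library 1 against 48.3, 64.7 and 39.4. IFNB1, the interferon beta gene, had 25.6 and 36.4 CPM in the non-induced and induced library 1, 6.54, 7.94 and 3.17 CPM in non-induced libraries 2 to 4, and 6.04, 7.48 and 4.68 CPM in induced libraries 2 to 4. Libraries numbered 4 were lowest of their groups for IFIT2 and IFNB1, and their list medians stood -0.39 and -0.27 from the other libraries numbered 2 to 4.

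Actin and SRF target genes were lower together. Of 35 tested, 2 were set apart lower and 0 higher, 28 lay below the range and 1 (CNN1) above it, and the median was -0.50. TAGLN, a smooth muscle protein that binds actin, had 68.4 CPM in non-induced library 1 against 269.6, 261 and 338 CPM in libraries 2 to 4, and 68.3 CPM in induced library 1 against 235, 229 and 314. MYL9, a regulatory light chain of myosin, had 167 and 160.3 CPM in the non-induced and induced library 1, 314, 330.3 and 374 CPM in non-induced libraries 2 to 4, and 286, 297 and 365 CPM in induced libraries 2 to 4. These are the genes of the list set apart. ACTG1 had 6305 CPM in non-induced library 1 against 9464, 8898 and 8756 CPM in libraries 2 to 4, and 6259 CPM in induced library 1 against 8586, 8274 and 9029. MYH9, the heavy chain of non-muscle myosin, had 1943 and 1998 CPM in the non-induced and induced library 1, 3823, 3849.9 and 3765 CPM in non-induced libraries 2 to 4, and 3710.0, 3762 and 4047 CPM in induced libraries 2 to 4. In all 4 genes both libraries numbered 1 lay below every other library, with log2 differences of -2.002, -1.002, -0.49 and -0.96. The same sign held for crosslinkers and focal contact genes, of which 15 of 17 lay below the range.

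Many matrix and TGF-beta genes and some YAP targets were lower. THBS1 (ENSG00000137801, chromosome 15, 39581079 to 39599466, plus strand) encodes thrombospondin 1, a matrix glycoprotein that can activate TGF-beta, and had 549 CPM in non-induced library 1 against 5233, 4504 and 4651 CPM in libraries 2 to 4, and 594 CPM in induced library 1 against 5272, 5279 and 5170.5. Its fitted log2 difference of -3.13 was the largest in size among the matrix genes of the list with more than 100 CPM in any library. Of 33 matrix genes, 9 were set apart lower and 0 higher, 21 lay below and 5 above the range, and the median was -0.46. FBN1, the fibrillin of microfibrils, had 67.3 and 72.1 CPM in the non-induced and induced library 1, 284, 270.4 and 238 CPM in non-induced libraries 2 to 4, and 246, 244 and 205 CPM in induced libraries 2 to 4. TNC, tenascin C, had 114 CPM in non-induced library 1 against 419, 381 and 328 CPM in libraries 2 to 4, and 124 CPM in induced library 1 against 479, 455 and 375. HAS2, which makes hyaluronan, had 0.348 and 0.304 CPM in the non-induced and induced library 1, 12, 13.9 and 10.4 CPM in non-induced libraries 2 to 4, and 7.44, 10.001 and 4.15 CPM in induced libraries 2 to 4. COL1A1, the main fibrillar collagen, was not lower, with 1471 CPM in non-induced library 1 against 1289, 1344 and 1434 CPM in libraries 2 to 4, and 1490.5 CPM in induced library 1 against 1221, 1323 and 1420.3.

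In the TGF-beta list, 7 of 18 were set apart lower and 1 higher, with a median of -0.54. ID1, an inhibitor of differentiation factors that BMP signals raise, had 12.1 and 14.1 CPM in the non-induced and induced library 1, 57.7, 41.6 and 37.4 CPM in non-induced libraries 2 to 4, and 66.8, 43.2 and 41.2 CPM in induced libraries 2 to 4. BAMBI, a decoy receptor of the family, was the member set apart higher, with 20.2 CPM in non-induced library 1 against 5.04, 4.53 and 4.13 CPM in libraries 2 to 4, and 15.2 CPM in induced library 1 against 5.6, 5.05 and 4.68. In the YAP and TEAD list, 5 of 24 were set apart lower and 1 higher, and 14 lay below the range, with a median of -0.19. By group, library 1 stood at -0.27 in the non-induced and -0.13 in the induced group, where single libraries numbered 2 to 4 ranged from -0.15 to 0.10, so induced library 1 lay inside that spread. CCN2, a matricellular growth regulator, had 50.8 and 89.953 CPM in the non-induced and induced library 1, 241, 249 and 169 CPM in non-induced libraries 2 to 4, and 238, 244 and 213 CPM in induced libraries 2 to 4. ANKRD1, a nuclear and sarcomeric protein, had 9.35 CPM in non-induced library 1 against 49.1, 43.2 and 31.2 CPM in libraries 2 to 4, and 17.6 CPM in induced library 1 against 47.6, 44 and 32.3. F3, tissue factor, had 29.7 and 24.6 CPM in the non-induced and induced library 1, 117, 114 and 97.1 CPM in non-induced libraries 2 to 4, and 91.3, 73.8 and 68.5 CPM in induced libraries 2 to 4. The libraries numbered 1 were the lowest of their group in each of these 3 genes, with log2 differences of -1.71, -1.64 and -1.78.

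Metallothioneins were lower as well, mitochondrial DNA transcripts and NRF2 targets were lower in part, and ribosomal protein genes were slightly higher. All 6 metallothioneins lay below the range, with a median of -0.95, though libraries numbered 4 also stood -0.36 and -0.30 from the other libraries numbered 2 to 4. MT1F had 3.23 CPM in non-induced library 1 against 9.94, 8.78 and 7.18 CPM in libraries 2 to 4, and 2.83 CPM in induced library 1 against 9.71, 8.19 and 7.25. Of 15 mitochondrial transcripts, 10 lay below the range, with a median of -0.43, and single libraries numbered 2 to 4 had medians from -0.26 to 0.32 against the others, while their summed share of reads, given above, did not set number 1 apart. NQO1, a quinone reductase and NRF2 target, had 35.2 and 37.4 CPM in the non-induced and induced library 1, 102, 93.3 and 79.9 CPM in non-induced libraries 2 to 4, and 103, 85.9 and 69.8 CPM in induced libraries 2 to 4. Of 14 tested NRF2 targets, 2 were set apart lower, 8 lay below and 3 above the range, and the median was -0.45. Their summed level did not set number 1 apart, at 3406 CPM in non-induced library 1 against 3124 to 3640 and at 3234 CPM in induced library 1 against 3029.7 to 3667. Of 45 ribosomal protein genes, 33 lay above the range, with a median of 0.13 and none set apart. Glycolysis genes had a median of -0.22 over 22, and none was set apart.

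**Figure D3:**
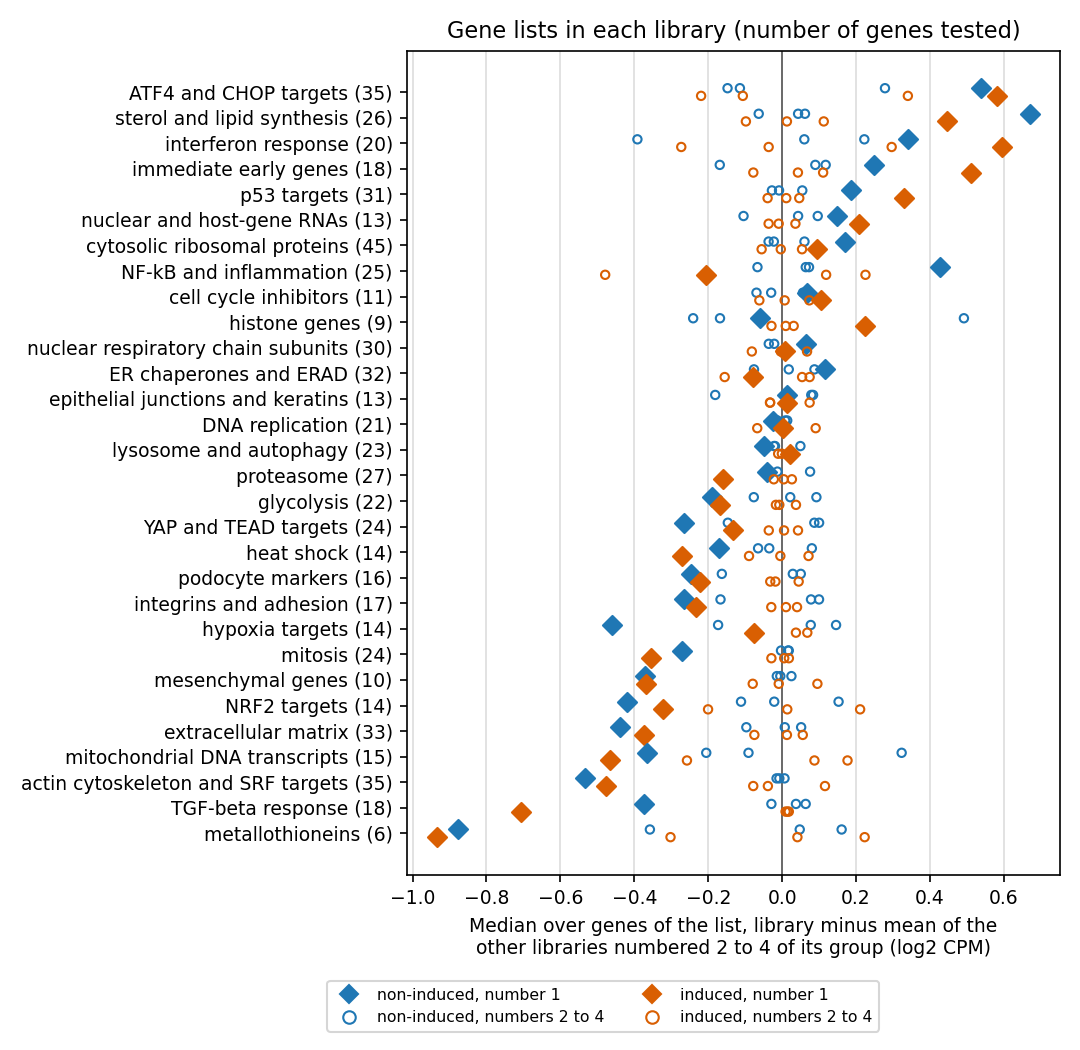
Median log2 CPM difference over the tested genes of each list (x axis), for each library against the mean of the other libraries numbered 2 to 4 of its group, with diamonds for library 1. Lists are ordered by the mean of the diamonds, from ATF4 and CHOP targets (0.54 and 0.58) to metallothioneins (-0.88 and -0.93), and circles show how far single libraries numbered 2 to 4 strayed from the others.

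A defining podocyte marker was at or near 0 in every library. NPHS1, the slit diaphragm protein nephrin, had 3 reads over the 8 libraries. Of 28 markers, 16 were tested, and 2 were set apart lower. WT1, a kidney and podocyte transcription factor, had 0.746 CPM in non-induced library 1 against 3.69, 3.69 and 4.61 CPM in libraries 2 to 4, and 0.506 CPM in induced library 1 against 3.94, 2.57 and 3.15. TCF21, another such factor, had 0.348 and 0.861 CPM in the non-induced and induced library 1, 1.31, 1.07 and 1.02 CPM in non-induced libraries 2 to 4, and 1.31, 1.48 and 1.42 CPM in induced libraries 2 to 4. KIRREL1, a slit diaphragm protein of the nephrin family, was higher, with 680.0 CPM in non-induced library 1 against 379, 383 and 335 CPM in libraries 2 to 4, and 763 CPM in induced library 1 against 377, 439 and 449. Summed over all 28 markers, the level was 4318 and 4419 CPM of the library total in the libraries numbered 1 and 4597 to 4770 in the others, most of it vimentin.

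Markers of other cell types were few, and their sums are given in CPM of the library total. Endothelial markers summed to 0.706 to 1.43 CPM over the 8 libraries, with 4 of 7 genes under 10 reads in all, among them EMCN and KDR at 0. Leukocyte markers summed to 2.59 to 4.10 CPM, with 4 of 8 under 10 reads, among them TYROBP at 0. Mesangial and pericyte markers summed to 20.5 CPM in non-induced library 1 against 18.1 to 19.6, and to 25.9 CPM in induced library 1 against 19.1 to 24, so library 1 was the highest of each group, with PDGFRA and ITGA8 at 0 reads. Of these 3 tested genes, 1 was set apart higher, GATA3, a zinc finger factor, with 52 and 51 reads in the libraries numbered 1 against 20 to 28 in the others. The part of GATA3 in other results was not tested. Tubular and parietal markers came almost wholly from PAX8, and UMOD and LRP2 were at 0 reads. In the induced library numbered 1, PAX8 stood at 281.2 CPM against 404, 406 and 354 in the other induced libraries, and its part in other results was not tested.

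Some genes were close to off in the libraries numbered 1 and well expressed in the others. Genes on only in the libraries numbered 1 mostly fail the filter, which asks for reads in 4 libraries, so the numbers of genes in the 2 directions are not compared. FLI1, an ETS transcription factor of blood and endothelial cells, had 1 read in non-induced library 1 and 0 in induced library 1, against 238 to 483 reads in the other libraries. TSPAN18, a tetraspanin, had 5 and 3 reads against 345 to 826. SIM2, a bHLH-PAS transcription factor, had 2.24 and 1.52 CPM in the non-induced and induced library 1, 87, 87.5 and 74.6 CPM in non-induced libraries 2 to 4, and 82.9, 86.6 and 71.5 CPM in induced libraries 2 to 4, a fitted log2 difference of -5.44. HOXD10, a positional homeobox gene, had 0.199 CPM in non-induced library 1 against 8.4, 9.76 and 5.32 CPM in libraries 2 to 4, and 0.0506 CPM in induced library 1 against 6.69, 7.91 and 3.99. S1PR3, a receptor for sphingosine 1-phosphate, had 0.199 and 0.405 CPM in the non-induced and induced library 1, 12.3, 12.6 and 8.37 CPM in non-induced libraries 2 to 4, and 11.2, 10.001 and 5.78 CPM in induced libraries 2 to 4. In these genes the libraries numbered 1 were clear of the rest in both groups, with at most 8 reads for FLI1, TSPAN18 and S1PR3 and a low but measured level for SIM2.

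In the other direction, LAMA5, a laminin chain of the glomerular basement membrane, had 64.1 CPM in non-induced library 1 against 7.56, 10.3 and 6.52 CPM in libraries 2 to 4, and 111 CPM in induced library 1 against 7.74, 9.14 and 10.1. WNT2B, a Wnt ligand, had 33.9 and 63.4 CPM in the non-induced and induced library 1, 4.95, 5.98 and 6.28 CPM in non-induced libraries 2 to 4, and 6.69, 7.0 and 12.2 CPM in induced libraries 2 to 4. ERBB3, a receptor of the EGF receptor family, had 19.5 CPM in non-induced library 1 against 4.44, 3.83 and 4.25 CPM in libraries 2 to 4, and 28.2 CPM in induced library 1 against 4.11, 5.52 and 7.88. All 3 were clear of the other libraries, with log2 differences of 3.32, 2.74 and 2.26. Below the filter lay 15966 genes with a read. Of these, 145 had at least 10 reads in both libraries numbered 1 and more than in any of the other 6. They include ZIC2, a zinc finger factor, with 44 and 56 reads against 1 to 10. The rule itself asks for high counts in number 1, and some genes passed it narrowly, such as TTC23L-AS1, with 16 and 23 reads against 5 to 14. The 145 genes were not tested because the filter asks for reads in 4 libraries.

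Genes of chromosome 2 were lower as a whole, a pattern that was looked for after the data were seen. Over 731 genes with a mean of at least 5 CPM, the median log2 difference was -0.17 in the non-induced and -0.20 in the induced library numbered 1. Each library numbered 2 to 4, set against the others of its group, had a median of -0.01 to 0.02 on this chromosome. In windows of 10 Mb with at least 20 such genes, all 18 windows of chromosome 2 had a median below 0, from -0.30 to -0.01. On chromosome 11 the medians were -0.10 and -0.13 over 627 genes, and 9 of 11 windows were below 0. Chromosome 18 had 0.11 and 0.09 over 162 genes, and chromosome 21 had 0.12 and 0.08 over 100 genes. For each library numbered 2 to 4, chromosome medians ranged from -0.04 to 0.04. Of the genes on chromosome 2, 74.3% had a fitted difference below 0, against 50.96% of all 11145 genes with a known chromosome. Copy number was not measured, and the cause of these shifts was not tested.

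**Figure D4:**
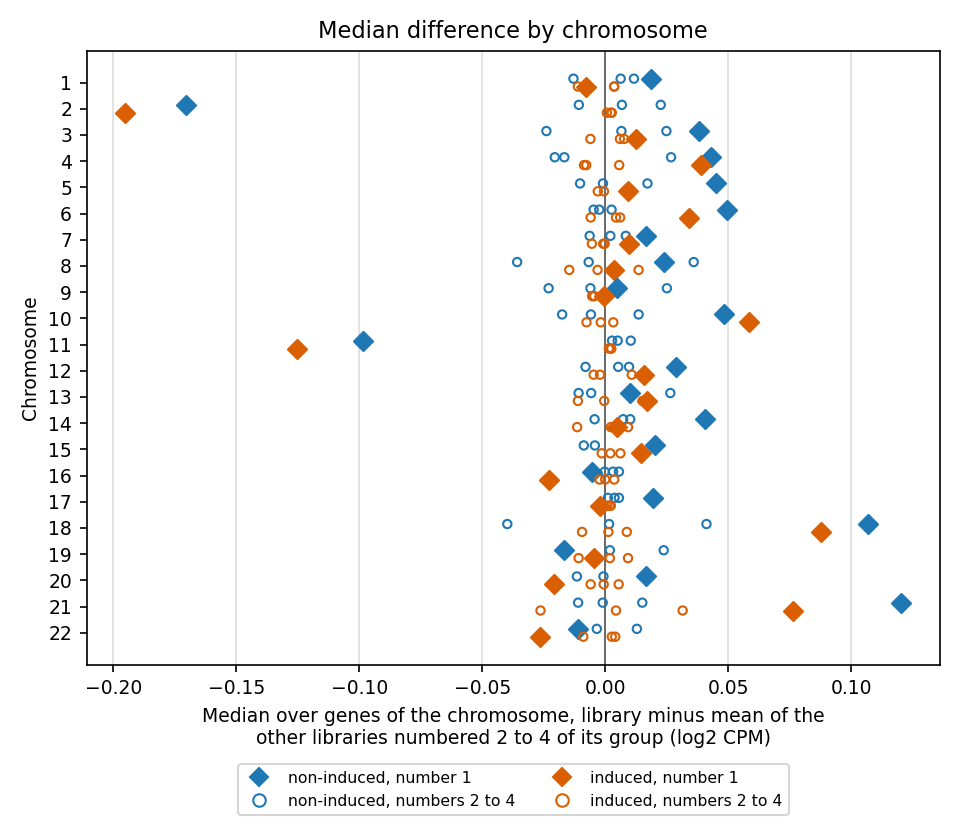
Median log2 CPM difference over the genes of each autosome with a mean of at least 5 CPM (x axis), for each library against the mean of the other libraries numbered 2 to 4 of its group. Both diamonds lie lowest on chromosomes 2 and 11 and highest on chromosomes 18 and 21, while the circles stay between -0.0398 and 0.0412.

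The response to induction is another contrast than the one that chose the libraries, so it was tested. The test asks, gene by gene, whether the induced minus non-induced difference is the same in number 1 as in numbers 2 to 4. It was the edgeR quasi-likelihood test of the interaction, two-sided, with Benjamini-Hochberg adjustment over 15637 genes. Each library numbered 1 is alone in its cell, so its spread was taken from the other 6. At FDR 0.05, 6 genes were called (0.0384%), 1 with a higher and 5 with a lower response in number 1, while an unadjusted p below 0.05 was found for 622 genes. Adding the replicate block, which pairs libraries of the same number, 62 were called (0.396%), 15 higher and 47 lower. DESeq2 called 32, and leaving out the non-induced or the induced library numbered 4 raised the count to 17 and 35.

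IL11, a cytokine of the interleukin 6 family that fibroblasts release on TGF-beta, responded the opposite way. Its level was 111 and 141 CPM in the non-induced and induced library 1, 131, 135 and 145 CPM in non-induced libraries 2 to 4, and 85.4, 78.5 and 81 CPM in induced libraries 2 to 4. It was higher after induction in the pair numbered 1 and lower in the 3 other pairs, an interaction of 1.09 on the log2 scale (SE 0.11, adjusted p = 0.00212, edgeR). SAA1, an acute phase protein, had 23.1 CPM in non-induced library 1 against 54.8, 54 and 56.5 CPM in libraries 2 to 4, and 3.75 CPM in induced library 1 against 39.7, 39.1 and 33.8, an interaction of -2.07 on the log2 scale (SE 0.19, adjusted p = 0.00127, edgeR). ZC3H12A, a nuclease that destroys cytokine messages, had 82.8 and 23.2 CPM in the non-induced and induced library 1, 82, 94.9 and 89 CPM in non-induced libraries 2 to 4, and 63.7, 74 and 62.5 CPM in induced libraries 2 to 4, an interaction of -1.43 (adjusted p = 0.00504, edgeR). The other 3 called genes were LCN2, an iron-binding defence protein, EHD1, a protein of endosome recycling, and B3GNT7, a glycosyltransferase, with interactions of -2.85, -0.80 and -1.65 and adjusted p of 0.0105, 0.0337 and 0.0438 (edgeR). In these 5 genes the induced library was the lower of each of the 4 pairs, with the widest step on the log2 scale in number 1. EHD1 and B3GNT7 lost the call without some single libraries, among them non-induced library 2 (adjusted p of 0.0941 and 0.123, edgeR) and non-induced library 3 (0.0853 and 0.111). The mean of LCN2 was 3.68 CPM, so its value rests on few reads.

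Of the 62 blocked calls, 6 were in the NF-kB list and 6 in the chaperone list. Of 25 genes in the NF-kB list, 1 was called for a higher and 5 for a lower response in number 1 with the replicate block. This compares with 0.396% of all genes, and the unblocked fit called 1, IL11. TNFAIP2, a target of tumour necrosis factor, had 783 CPM in non-induced library 1 against 204, 243 and 255 CPM in libraries 2 to 4, and 307 CPM in induced library 1 against 151, 176 and 175. NFKBIA, the inhibitor of NF-kB, had 217 and 97.8 CPM in the non-induced and induced library 1, 169.6, 186 and 158 CPM in non-induced libraries 2 to 4, and 126, 137 and 100.3 CPM in induced libraries 2 to 4. In this list the median difference of library 1 was 0.43 in the non-induced and -0.21 in the induced group. Induced library 4 stood at -0.48 against the other induced libraries numbered 2 to 4, so the induced library 1 lay inside the spread of the others on this list. TRAF1, an adaptor of tumour necrosis factor receptors, was set apart higher in both, with 98 CPM in non-induced library 1 against 16.9, 18.9 and 16.4 CPM in libraries 2 to 4, and 57.2 CPM in induced library 1 against 12.6, 13.1 and 10.3. IL1A, interleukin 1 alpha, was set apart lower, with 3.73 and 1.21 CPM in the non-induced and induced library 1, 8.45, 9.71 and 8.07 CPM in non-induced libraries 2 to 4, and 4.46, 4.71 and 3.05 CPM in induced libraries 2 to 4. CXCL8, a chemokine that draws neutrophils, had 1202 CPM in non-induced library 1 against 1268, 1313 and 1273 CPM in libraries 2 to 4, and 183 CPM in induced library 1 against 590.5, 597 and 325, with induced library 4 between library 1 and the others, and it was not called.

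Of 32 chaperone and degradation genes, 6 were called for a lower response in number 1 with the replicate block and 0 without it. Of all genes, 0.396% were called in either direction with the block. The 6 chaperone genes called were HSPA5, HSP90B1, CALR, HYOU1, PDIA4 and SDF2L1. In numbers 2 to 4, 19 of the 32 rose with induction and 0 fell with the block (14 and 0 without it). PDIA4, a disulfide isomerase, had 326 and 323 CPM in the non-induced and induced library 1, 268, 262 and 215 CPM in non-induced libraries 2 to 4, and 379, 363 and 290.2 CPM in induced libraries 2 to 4. Its level was higher after induction in pairs 2 to 4 and about equal in the pair numbered 1. For HSPA5 the interaction was -0.51 on the log2 scale, with an adjusted p of 0.045 with the block and 0.24 without it (edgeR). CRB2 RNA after induction was also lower in number 1, as given above, and its part in this was not tested.

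**Figure D5:**
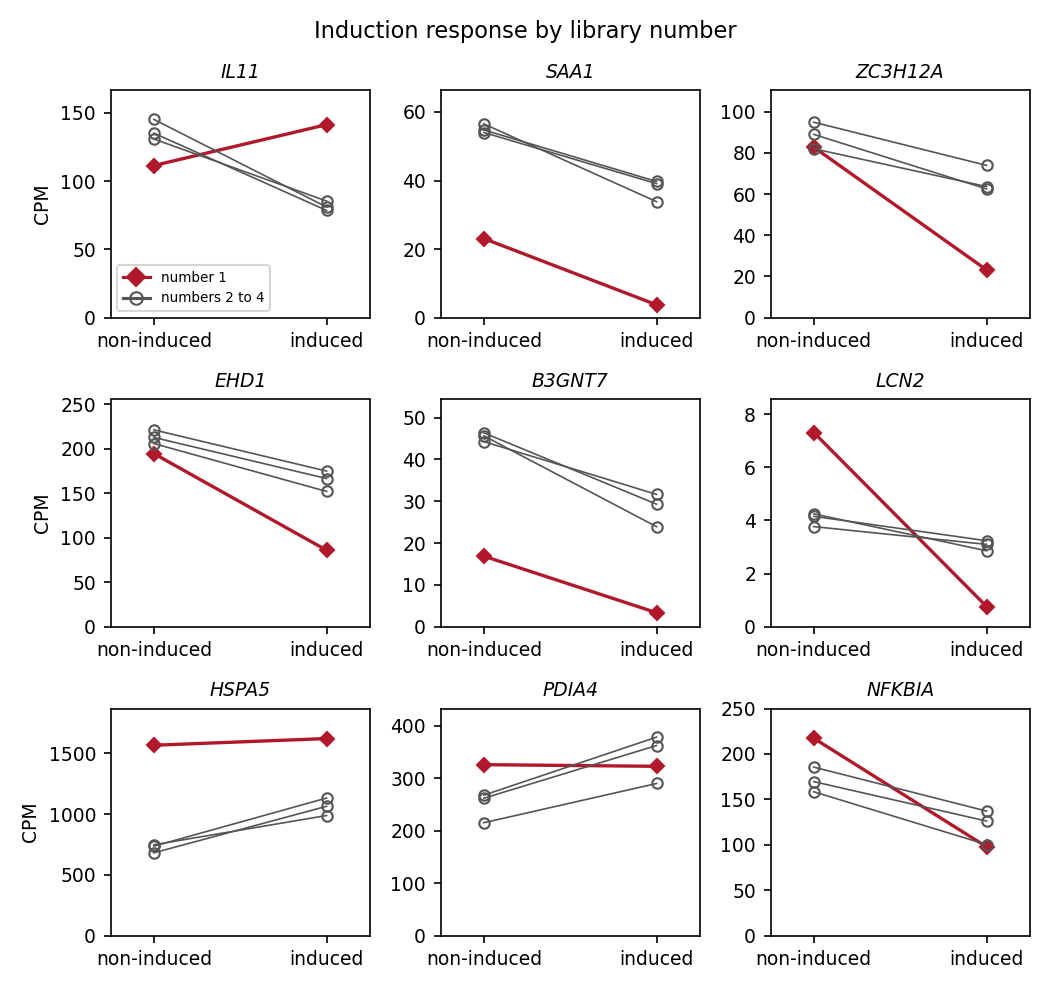
CPM in the non-induced and induced library of each number, joined by a line, for the 6 genes called for the interaction and for HSPA5, PDIA4 and NFKBIA, with number 1 in red diamonds. IL11 is higher after induction in the red pair and lower in the grey pairs, and the red line of HSPA5 is nearly flat above the grey lines.

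Induction was also tested within numbers 2 to 4 alone, to see how the genes set apart behave in libraries that the choice did not set apart. Of 15769 genes, 242 rose (1.53%) and 301 fell (1.91%) without the replicate block, and 808 rose (5.12%) and 913 fell (5.79%) with it (edgeR quasi-likelihood test, FDR 0.05). The unblocked count of 543 in both directions dropped to 132 without non-induced library 3, 357 without induced library 2 and 203 without induced library 3. Of the 650 genes set apart lower, 43 fell and 10 rose without the block, and 112 fell (17.2%) and 21 rose (3.23%) with it. Of 352 tested genes set apart higher, 8 fell and 10 rose without the block, and 16 fell (4.55%) and 29 rose (8.24%) with it. A gene counts as set apart partly because its libraries 2 to 4 lie close together, which also makes a call easier, so these shares are a description.

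All 6 markers moved with induction in numbers 2 to 4 with the block. DDIT3, HSPA5, MDM2, VCAN and TPM1 rose, by 0.56, 0.55, 0.32, 0.30 and 0.25 on the log2 scale, and ACTB fell by 0.19. VCAN and TPM1 thus rose with induction although both are lower in number 1. ACTB and TPM1 lost the unblocked call without non-induced library 3 (adjusted p of 0.171 and 0.0977, edgeR) or induced library 3 (0.125 and 0.0565), and ACTB also without non-induced library 2 (0.0546). With the block, the sterol list had 13 of 26 genes that rose and 0 that fell, and the p53 list had 10 of 31 that rose and 3 that fell. For the 34 tested members of the ATF4 and CHOP list, the blocked fit called 8 up and 2 down, and the unblocked fit 2 up and 1 down. In the actin list 1 of 35 rose and 9 fell, and in the matrix list 8 of 33 rose and 12 fell. Both contrasts use the libraries numbered 2 to 4, so the values are set side by side and not correlated.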

How the data were processed

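Total RNA of 8 libraries was sequenced as single reads of 75 bases from a directional library kit, per the labels' protocols. The authors deposited raw read counts per Ensembl gene and a normalized table (signal values), in which each column is the raw column divided by 1 factor, per a check of the values. Per the submitters' processing notes, bcl2fastq, Trimmomatic 0.38, HISAT2 2.1.0, HTSeq 0.11.1 and DESeq2 1.24.0 were used with GRCh38 (hg38). For the annotation release and the strand setting, the labels and notes give nothing (not given in the sources used here), so reads of overlapping or near-identical genes may be split or merged. Gene names and positions came from GENCODE release 29, which held 58275 of 58395 identifiers.

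Counts were filtered with filterByExpr (minimum count 10), scaled by TMM and fitted with edgeR 4.0.16 in R 4.3.3. Log2 CPM used a prior count of 2. Differences of the libraries numbered 1 came from a fit with induction and number 1 as terms, without a test. Tests were edgeR's robust quasi-likelihood test, two-sided, with Benjamini-Hochberg adjustment at FDR 0.05, of the interaction of induction with number 1 over 8 libraries and of induction in numbers 2 to 4. Alternatives were other scalings and filters, DESeq2 1.42.0, the replicate block, the deposited normalized table and leaving out each library. Steps were tested on simulated data with large planted changes, which does not cover smaller changes, weakly expressed genes or the replicate block. P-values measure the spread between these libraries, which may be technical.

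In numbers 2 to 4, deviations from the group means correlated at 0.251, 0.336 and 0.386 for libraries of the same number and at -0.343 to 0.137 for different numbers, over 11502 genes. By this check the numbers pair the libraries, and what a number marks is not labelled.

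The libraries, the 34 gene lists and the tests were chosen with earlier results of these data known. The text names the 6 given markers, CRB2, the 12 genes set apart furthest in each direction with a mean of at least 5 CPM, up to 4 set apart members of each list, and the 6 genes of smallest interaction p in each direction, and may leave some of these out. Genes of chromosome Y and XIST are counted among all genes but not named or shown. Promoter windows are RefSeq's (GRCh38.p14), matched by symbol. Intervals and read limits cover counting error only. Some genes of the lists enter the counts and medians but are not reported here by name.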

Additional observations from a re-analysis of the deposited data

Results flagged for a closer look

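Within each group of 4 libraries, a value was marked where the gap from the highest or lowest library to its nearest neighbour exceeded the limit that Dixon gives for 4 values, as a share of the whole range of the group. Of 26 groups looked at, 13 were marked. Chance marks about 1 in 20 among values not chosen beforehand, so that rate is no base for the markers. The libraries numbered 1 were chosen for their expression, so their marks describe that choice. Library 1 stood alone at the top for MDM2 (0.924 of the range in the non-induced and 0.963 in the induced group), for DDIT3 (0.938 and 0.924) and for HSPA5 (0.925 in the non-induced group). It stood alone at the bottom for ACTB (0.870 and 0.957), for VCAN (0.857 and 0.851), for TPM1 (0.988 in the non-induced group) and for CRB2 (0.879 in the induced group). The TMM scaling factor was highest in induced library 1 (0.885). The share of mitochondrial DNA reads was highest in non-induced library 4 (0.863), a library of the other side.

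For 6 genes the induction response in number 1 differed from that in numbers 2 to 4 by a test of the difference itself (edgeR quasi-likelihood test, FDR 0.05). The differences on the log2 scale were -2.07 for SAA1, 1.09 for IL11, -1.43 for ZC3H12A, -2.85 for LCN2, -0.80 for EHD1 and -1.65 for B3GNT7.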

How the results depend on the processing

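The count of 373 genes set apart higher and 650 lower became 1307 and 1106 with no filter, 100 and 156 at a mean of at least 10 CPM, 1105 and 1266 at a log2 difference of at least 0.58, and 56 and 209 at a log2 difference of at least 2. Leaving out each library in turn gave 395 to 521 higher and 657 to 813 lower. Leaving out the sex chromosomes, chosen after seeing the data, gave 363 and 610. The sign of the difference was followed for the named genes that were set apart and for the markers. Over the other scalings, filters, the deposited table and the libraries left out, 0 of these differences reversed. By the spread of numbers 2 to 4, 87 values moved and 1180 did not. Genes set apart by 2-fold had little room to reverse, and other named genes were not followed. Among list medians, that of the mesangial and pericyte markers went from 0.19 to -0.031 with no filter and to -0.024 at a mean of at least 10 CPM. The NF-kB median ranged from -0.22 without non-induced replicate 1 to 0.42 without induced replicate 1, and the histone median from -0.071 without induced replicate 1 to 0.23 without non-induced replicate 4. Scaling moved the median of all genes from 0.01 to at most 0.07, with library totals.

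The 6 genes called for the interaction became 62 with the replicate block, 103 with no filter, 3 at a mean of at least 10 CPM, 3 at FDR 0.01 and 32 with DESeq2, and ranged from 4 to 35 when each library numbered 2 to 4 was left out. The 543 genes called for induction in numbers 2 to 4 became 1721 with the replicate block, 1256 with no filter and 138 at FDR 0.01, and ranged from 132 to 468 with a library left out. The cause of these shifts was not tested.

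Only 1 library per group stands on the number 1 side, so its own spread within a group was not measured. With 3 reads as the limit that a count of 0 allows, a library of this depth detects 0.13 to 0.178 CPM, and folds of genes near that level are uncertain.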
